A study of Mus musculus with 8 samples.

Results

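The genes described here are 35 genes of cholesterol synthesis, uptake and efflux, taken by symbol from a table of 55291 genes counted in whole lumbar spinal cord of 8 SOD1G93A mice. They were split into 18 synthesis genes and 17 genes of regulation, transport, efflux, storage and sterol hydroxylation, and all 35 were among the 19470 genes that passed the filter on low counts. The list holds no cell-surface lipoprotein receptor, so uptake is represented by the lysosomal genes Npc1, Npc2 and Lipa. All 8 mice were males on a C57BL/6 background that carried the SOD1G93A transgene, which encodes a mutant human superoxide dismutase and causes motor neuron degeneration, and all carried 1 Cx3cr1 Cre/+ allele and received tamoxifen at 12 weeks. The 4 SOD1G93A Ager fl/fl Cx3cr1 Cre/+ mice (E1776, E5231, E5248 and E5568, Ager-deleted below) also carried loxP-flanked alleles of Ager, which encodes RAGE, a receptor for glycated proteins and other danger signals. The 4 SOD1G93A Ager+/+ Cx3cr1 Cre/+ mice (E5386, E5642, E6578 and E6732) were the Cre-expressing controls. The labels give an age of 120 days, whereas the study describes the sequenced cords as taken at disease end stage. Recombination in this model is limited to cells that use the Cx3cr1 promoter, chiefly microglia in the spinal cord, and both groups lack 1 functional copy of Cx3cr1, while the RNA came from all cells of the tissue, in which fewer cells of a type and less RNA per cell cannot be told apart.

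Cholesterol in the central nervous system is made locally, because the blood-brain barrier keeps out plasma lipoproteins, and most of it lies in myelin. Its synthesis runs from acetyl-CoA through mevalonate and squalene to lanosterol and then to cholesterol, and the genes of these steps are controlled together by the transcription factor SREBP2, whose release from the endoplasmic reticulum requires SCAP and is blocked by the INSIG proteins when sterol is abundant. Oxysterols activate the liver X receptors (LXR), which raise expression of the efflux transporters ABCA1 and ABCG1. Neurons dispose of cholesterol by 24-hydroxylation, and macrophages and microglia that take up myelin store the excess as cholesteryl ester.

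Several libraries stood apart from the rest. Raw totals ran from 34743301 to 39582764 counts in Ager-deleted and from 31148047 to 40324897 in control mice, and the lowest count of any cholesterol gene in any mouse was 166 (Idi1), so depth did not limit detection. Ager itself lay between 0.889 and 1.51 CPM (counts scaled to the TMM-normalized library size) in Ager-deleted and between 1.53 and 2.41 in control mice, with no overlap, a log2 fold change of -0.81 and adjusted p-values of 0.252 (exact test of edgeR) and 0.705 (its quasi-likelihood test). Controls E5386 and E5642 held skeletal muscle transcripts, with summed CPM over 12 markers of 943 and 1472, against 12.0 to 29.4 in the other 6 mice. Control E5386 also held adipocyte transcripts (184 CPM over 8 markers, against 1.02 to 7.19 elsewhere) and few Schwann cell transcripts (8.56 CPM over 5 markers, against 208 to 758 elsewhere), and control E6732 held liver transcripts (773 CPM over 12 markers, against 2.96 to 3.84 elsewhere). The markers of the cord itself were all detected, with no gene at 0 in every mouse. Oligodendrocyte markers summed to 22505 to 24689 CPM in Ager-deleted and 22460 to 25069 in control mice, astrocyte markers to 13561 to 19081 and 15607 to 17672, microglial markers to 1727 to 3147 and 2255 to 2602, and neuronal markers to 3281 to 4351 and 3579 to 4390. The part of these differences in the cholesterol genes was not tested beyond the values given beside each result.

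No cholesterol gene passed the test between Ager-deleted and control spinal cord. In the exact test of edgeR with Benjamini-Hochberg adjustment over 19470 genes, 0 of 35 were called at an adjusted p of 0.05, against 14 of all genes (0.0719%), and the quasi-likelihood test of edgeR called 0 of 35 against 1 of all genes (0.00514%). At an unadjusted p under 0.05, 1 member (Cyp46a1) was higher in Ager-deleted mice in the exact test, where 1.2% of all genes were, and 0 members were lower, where 3.06% of all genes were. The quasi-likelihood test counted 2 of 35 members at that level, Cyp46a1 and Srebf2, both higher. It counted 1307 of all 19470 genes there, in both directions. The 18 synthesis genes had a median log2 fold change (Ager-deleted over control) of 0.04, with a range of -0.14 to 0.18, and the 17 other genes a median of -0.01, with a range of -0.20 to 0.25, beside a median of 0.01 over all tested genes. Of the synthesis genes 5 were lower and 13 higher in Ager-deleted mice, and of the other genes 10 were lower and 7 higher, where 48% of all tested genes were lower. The median of the synthesis genes was -0.03 without control E5642 (11 of 18 lower) and -0.01 without Ager-deleted E5248 (10 of 18 lower), and it was -0.03 without both controls that held muscle transcripts (12 of 18 lower).

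The intervals of these differences were narrow. The 95% interval of the fold change, from the quasi-likelihood fit, lay within 1.25-fold in either direction for 22 of 35 genes (11 of 18 synthesis genes) and within 1.5-fold for 35 of 35, and it held 1 for 33 of 35, the exceptions being Cyp46a1 and Srebf2. The lowest bound was 0.671-fold, for Abca1, and the highest was 1.37-fold, for Stard4. For the synthesis genes the bounds ran from 0.796-fold to 1.35-fold. Each replicate was 1 mouse.

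**Figure D1:**
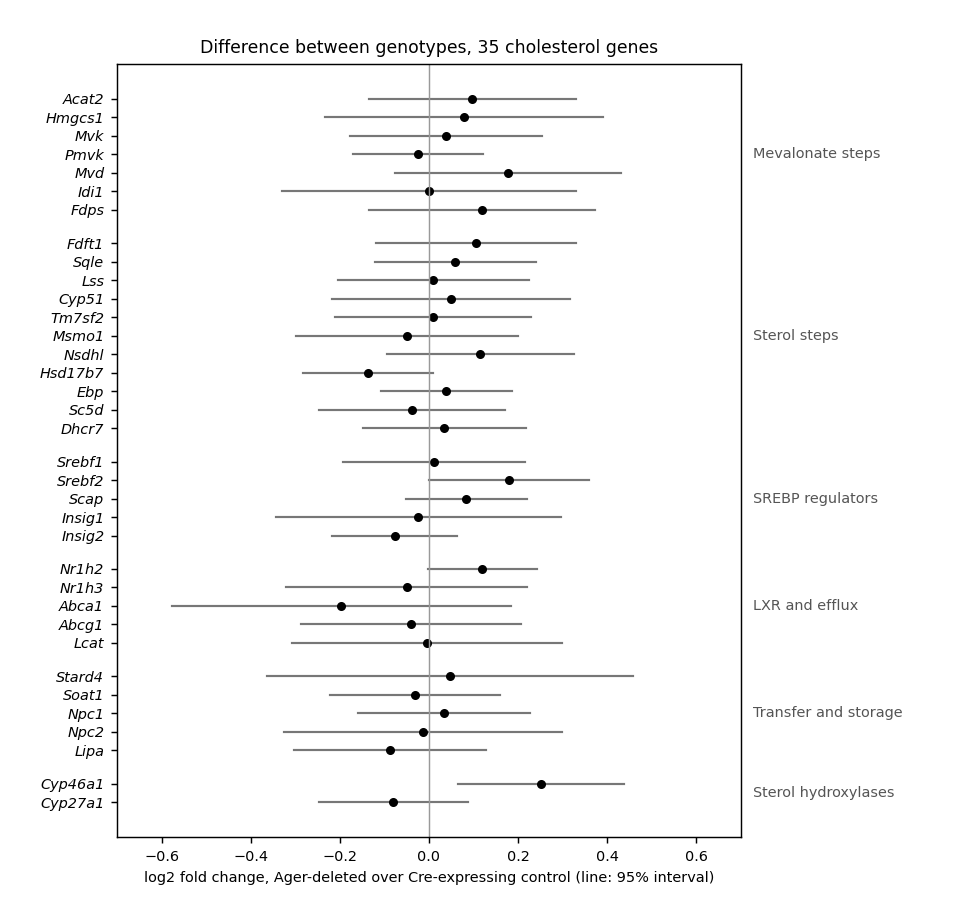
Points show the log2 fold change of Ager-deleted over Cre-expressing control spinal cord (horizontal axis, log2 units) for each of the 35 genes, grouped by role, and lines show the 95% interval from the quasi-likelihood fit, with 4 mice in each group. All but 2 lines cross 0, those of Cyp46a1 and Srebf2, and the widest reach to the left at Abca1 and to the right at Stard4.

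The cholesterol genes were well expressed in lumbar cord. Per kilobase of exon, 31 of 35 lay above the median of 3.74 CPM per kb over 19079 tested genes with a known length. The highest levels were those of Npc2, the soluble sterol carrier of the lysosome, at 48.7 CPM per kb, Srebf1 at 30.6, Hmgcs1 at 28.8 and Abca1 at 28.7, the last 3 of which were close together. Hmgcs1, the HMG-CoA synthase, had the highest level among the synthesis genes, followed by Pmvk at 20.1 and Sc5d at 16.8 CPM per kb. The 4 genes below the median were Idi1 at 1.71, Fdps at 1.96, Tm7sf2 at 2.84 and Nr1h3 at 3.20 CPM per kb. Each of these 4 shares exon bases with another gene model, in Nr1h3 only 34, so their levels are less certain. Overlap was not particular to them, and Hmgcs1 and Srebf1 also share exon bases with other genes. Idi1 and Fdps encode successive enzymes, the isopentenyl diphosphate isomerase and the farnesyl diphosphate synthase.

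**Figure D2:**
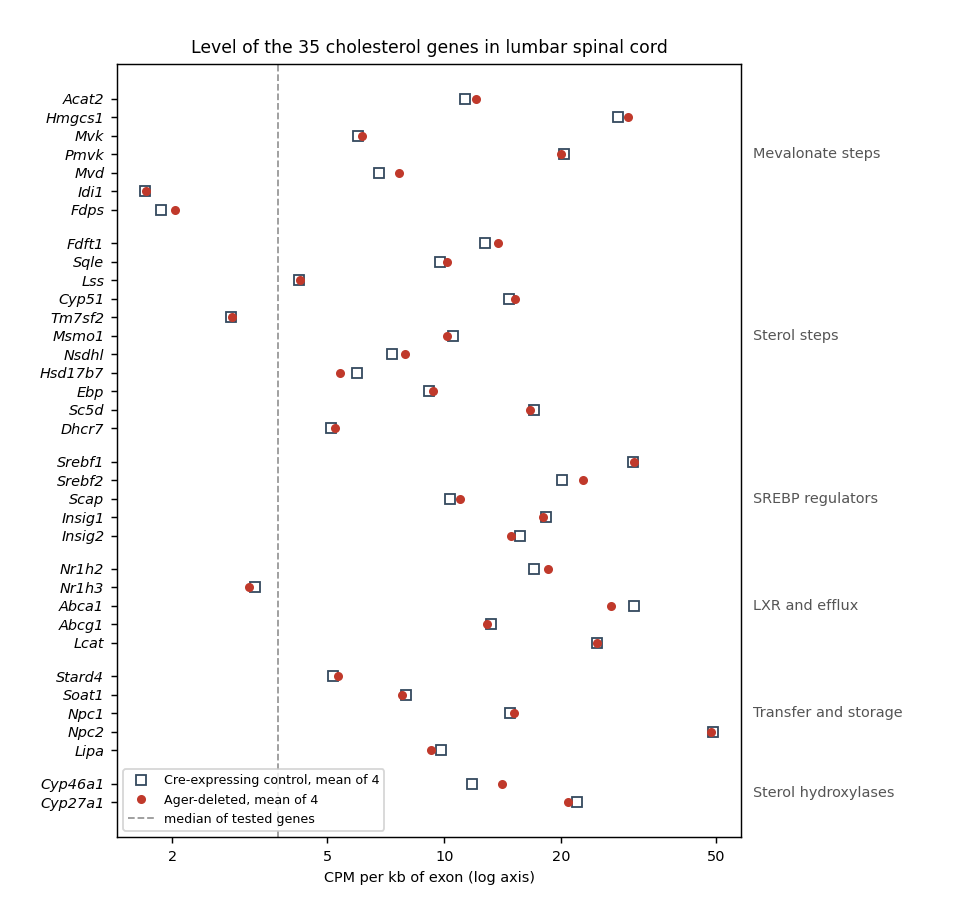
Mean expression of each gene in CPM per kb of exon (horizontal axis, log scale) in 4 Ager-deleted mice (filled circles) and 4 Cre-expressing controls (open squares), with the median of tested genes, 3.74 CPM per kb, as a dashed line. The paired symbols overlap or lie close together for each gene, while levels run from below 2 CPM per kb for Idi1 to 48.7 for Npc2.

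Hmgcs1 makes the HMG-CoA that enters the mevalonate steps, and it varied more within a genotype than between them. It measured 111, 116, 173 and 143 CPM in Ager-deleted and 126, 109.6, 131 and 148 CPM in control mice, listed, as for every gene below, in the order in which the mice were named above. The means were 135.9 ± 28.6 and 128.7 ± 15.8 CPM (SD, n = 4), with a log2 fold change of 0.08 (SE 0.14). The highest mouse, E5248, and the second lowest, E1776, were both Ager-deleted, and the groups overlapped. Idi1 measured 4.98, 5.77, 7.62 and 5.61 CPM in Ager-deleted mice and 6.24, 5.13, 5.88 and 6.69 CPM in controls, so that its means of 5.99 ± 1.14 and 5.98 ± 0.659 CPM (SD, n = 4) were nearly equal, with E5248 again highest and E1776 lowest. Of the other mevalonate genes, Mvd, the mevalonate diphosphate decarboxylase, named after its values were seen, had the largest log2 fold change at 0.18 (SE 0.11; exact test p = 0.22 before adjustment), from 14.3 ± 1.49 and 12.6 ± 1.61 CPM (SD, n = 4). The log2 fold change of Mvd was 0.12 without E5568, 0.09 without control E5642, 0.03 without E5386 and E5642 and 0.04 with a skeletal muscle marker score as a covariate (the muscle covariate below). Acat2 (0.10), Mvk (0.04), Pmvk (-0.02) and Fdps (0.12) had smaller log2 fold changes. Acat2 and Idi1 have close paralogs with which reads may be shared, and Fdps shares 1124 exon bases with a gene model on the same strand, so their counts are less certain. Hmgcs1 and Idi1 also share 557 and 323 exon bases with gene models on the opposite strand, and whether counting used strand was not stated.

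Fdft1, the squalene synthase that commits carbon to sterols, measured 48.6, 53.7, 63.2 and 66.5 CPM in Ager-deleted and 52.5, 49.96, 59.1 and 54.1 CPM in control mice. E5248 and E5568 lay above all controls and E1776 below all of them, and the log2 fold change was 0.11 (SE 0.10). That value was 0.18 without E1776, 0.06 without E5248, 0.03 without E5568, 0.06 without control E5642 and 0.03 without E5386 and E5642. Fdft1 shares 774 exon bases with Ctsb on the opposite strand. Sqle, the squalene epoxidase and a rate-limiting enzyme of the sterol steps, measured 50.01, 55.2, 62.1 and 57.9 CPM in Ager-deleted and 54.5, 48.4, 57.9 and 55.4 CPM in control mice. Its means were 56.3 ± 5.07 and 54.0 ± 4.03 CPM (SD, n = 4), and the groups overlapped. Cyp51, the lanosterol demethylase, measured 56.8, 60.03, 80.3 and 70.8 CPM in Ager-deleted and 66.5, 54.0, 65.8 and 72.3 CPM in control mice, with a log2 fold change of 0.05 (SE 0.12). Dhcr7, which completes cholesterol from its last precursor in the Kandutsch-Russell order, measured 30.6, 28.5, 33.3 and 29.5 CPM in Ager-deleted and 30.3, 25.6, 32.2 and 30.95 CPM in control mice. In Sqle, Cyp51 and Dhcr7 the highest mouse was E5248 and the lowest was control E5642. Hsd17b7, a sterol ketone reductase named for the same reason, was the synthesis gene with the most negative difference, at 27.6 ± 0.853 CPM in Ager-deleted and 30.4 ± 2.14 CPM in control mice (SD, n = 4), for a log2 fold change of -0.14 (SE 0.066; exact test p = 0.145 before adjustment), which was -0.22 without E5386 and E5642 and -0.21 with the muscle covariate (unadjusted quasi-likelihood p = 0.0184 in edgeR). The log2 fold changes of Lss, Tm7sf2, Msmo1, Nsdhl, Ebp and Sc5d lay between those of Hsd17b7 and Mvd, and each of these genes overlapped between the groups. Exon bases were also shared by Cyp51 (166) and Lss (381) with genes on the opposite strand and by Tm7sf2 (532) with Vps51 on the same strand, which makes these counts less certain.

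Synthesis genes varied together across the 8 mice, and no correlation was computed within 1 genotype. E5248 was the highest of the 8 mice for 10 of 18 synthesis genes and E5568 for 6, while control E5642 was the lowest for 10 and Ager-deleted E1776 for 5. Summed over the 18 genes, the Ager-deleted mice measured 647, 672, 837 and 769 CPM and the controls 717, 637, 753 and 752 CPM, so both the highest sum and the second lowest were Ager-deleted. After each genotype mean was removed from log2(CPM + 1), the median Pearson correlation over the 153 pairs of synthesis genes was 0.65 (median Spearman 0.57) across the 8 mice, and 41.2% of pairs exceeded 0.7. Pairs of a synthesis gene with any other tested gene had a median of 0.02 with 6.38% above 0.7. Pairs with oligodendrocyte markers had a median of 0.25 with 11.1% above 0.7. Pairs with the 17 other cholesterol genes had a median of -0.23 with 13.7% above 0.7. That median covers genes of both signs, from -0.67 for Abca1 to 0.78 for Stard4. These values are descriptions over 8 libraries whose points share depth and tissue makeup. Sqle followed the other synthesis genes most closely, with a median of 0.83, and Ebp did not, with -0.03. Without controls E5386 and E5642, a choice made after seeing the data, the median within the synthesis genes was 0.62 and that with the other cholesterol genes -0.38.

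**Figure D3:**
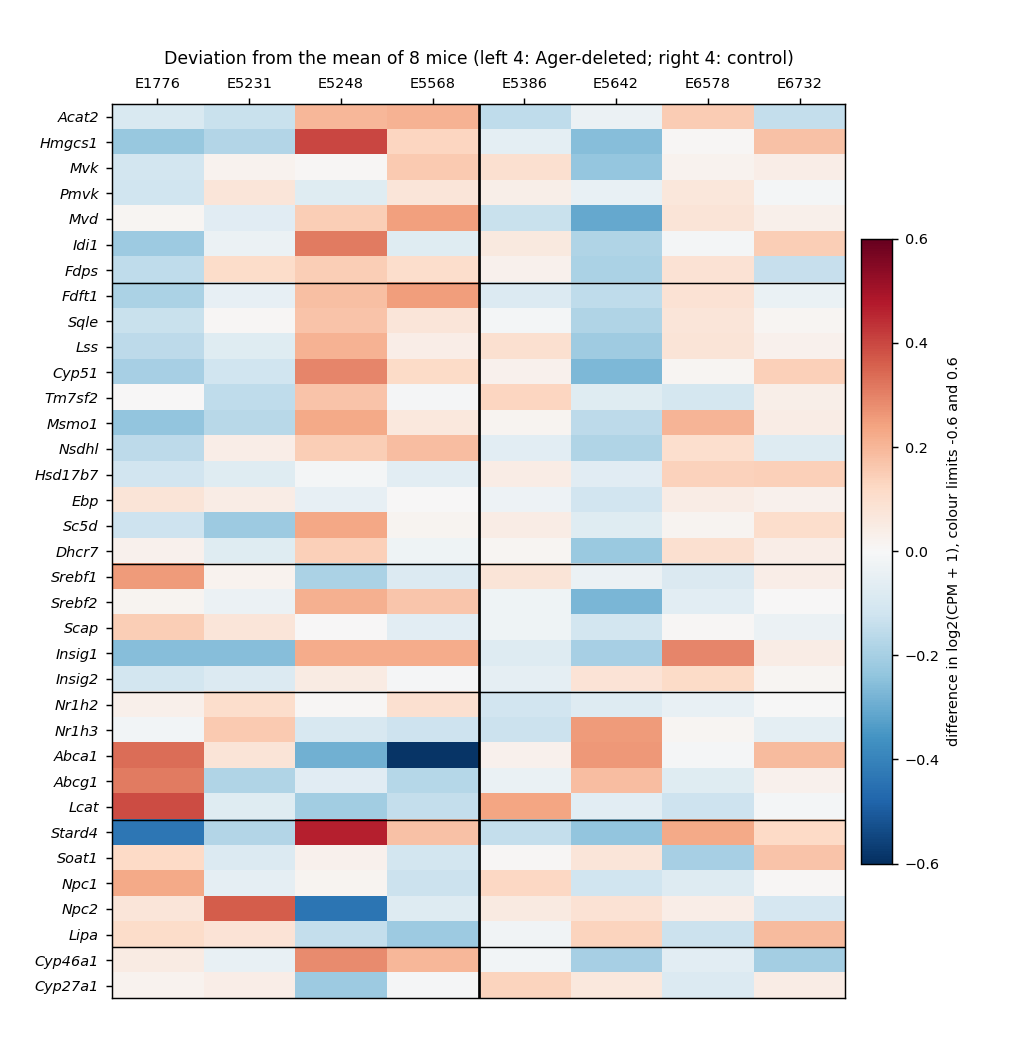
Each cell shows the difference of a gene's log2(CPM + 1) in 1 mouse from its mean over 8 mice, from blue (-0.6) to red (0.6), with the 4 Ager-deleted mice left of the vertical line, the 4 controls right of it, and horizontal lines between the roles. Synthesis genes in the upper rows are mostly red in E5248 and E5568 and mostly blue in E1776 and E5642, whereas Abca1, Abcg1 and Lcat are red in E1776.

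In E5248 and E5568, the mice highest for most synthesis genes, summed microglial markers were lowest of all 8 mice at 1727 and 2091 CPM, and summed astrocyte markers were also lowest, at 13561 and 15101 CPM. Their neuronal markers summed to 4351 and 4052 CPM. In E1776 and E5642, the mice lowest for most synthesis genes, microglial markers summed to 2751 and 2602 CPM, astrocyte markers to 19081 and 17526 CPM and neuronal markers to 3772 and 3800 CPM. Oligodendrocyte markers, averaged on the log2 scale used above, were lowest of all 8 mice in E5642, at 8.959. E5642 had the lowest level for 6 of these 12 markers. The other mouse low for synthesis genes, E1776, had a mean of 9.145, above the 9.131 of E5248 and the 9.120 of E5568. The part of cell composition, oligodendrocytes included, in the shared variation was not tested.

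Promoters of synthesis genes are known for sites of SREBP and its partners NF-Y and Sp1, and 3 promoters are shown because they belong to a synthesis gene with all 3 elements searched, a synthesis gene with 2 of them, and an efflux gene whose levels ran against the synthesis genes. The sequences are from RefSeq (GRCm38.p6), run from 250 bases before to 50 bases after the annotated start, and are written 5′ to 3′ on the strand of the gene, with capitals marking the sterol regulatory element TCACNCCAC, the NF-Y box CCAAT and the Sp1 box GGGCGG on either strand. They lie at chr13:119690101-119690400 on the plus strand (Hmgcs1), chr5:4104648-4104947 on the minus strand (Cyp51) and chr4:53159846-53160145 on the minus strand (Abca1).
Hmgcs1: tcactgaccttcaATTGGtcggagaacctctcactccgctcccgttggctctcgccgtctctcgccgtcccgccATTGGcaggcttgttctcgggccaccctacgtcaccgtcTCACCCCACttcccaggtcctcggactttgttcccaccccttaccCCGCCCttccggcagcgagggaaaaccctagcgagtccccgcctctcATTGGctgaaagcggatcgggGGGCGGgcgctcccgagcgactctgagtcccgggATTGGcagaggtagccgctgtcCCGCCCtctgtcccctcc
Cyp51: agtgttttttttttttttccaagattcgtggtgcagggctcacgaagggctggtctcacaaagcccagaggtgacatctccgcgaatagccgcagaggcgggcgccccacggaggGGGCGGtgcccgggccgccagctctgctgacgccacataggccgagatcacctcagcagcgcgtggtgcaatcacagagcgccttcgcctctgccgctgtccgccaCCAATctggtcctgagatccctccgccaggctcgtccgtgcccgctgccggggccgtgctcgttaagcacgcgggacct
Abca1: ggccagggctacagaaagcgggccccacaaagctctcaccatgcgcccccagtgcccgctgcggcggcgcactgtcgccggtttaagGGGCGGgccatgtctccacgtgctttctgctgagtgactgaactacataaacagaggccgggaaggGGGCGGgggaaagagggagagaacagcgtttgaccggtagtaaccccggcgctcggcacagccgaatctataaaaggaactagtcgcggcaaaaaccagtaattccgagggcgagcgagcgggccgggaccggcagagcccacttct
The Hmgcs1 promoter held 1 sterol regulatory element, 4 NF-Y boxes and 3 Sp1 boxes, that of Cyp51 held 1 NF-Y box and 1 Sp1 box, and that of Abca1 held 2 Sp1 boxes.

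Promoters were found for 29 of 35 members. Some genes had more than 1 promoter, and a gene was counted if any of its promoters held the element. The NF-Y box was present for 14 of 15 synthesis genes (93.3%) and 10 of 14 other members (71.4%), against 42.2% of the 13395 tested genes with a promoter and 41.1% of all 27025 genes with one. The Sp1 box was present for 14 of 15 synthesis genes and 11 of 14 other members (78.6%), against 63% of tested genes and 38.2% of all. The sterol regulatory element, in this spelling, was present for 1 of 15 synthesis genes (6.67%), Hmgcs1, and for 0 of 14 others, against 1.41% of tested genes. A match is a run of letters and not a measured binding site.

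Among the SREBP regulators, Srebf2, which encodes SREBP2, had the largest difference. It measured 155, 149, 178 and 172 CPM in Ager-deleted and 151, 126, 147 and 153 CPM in control mice. Of the Ager-deleted mice, 3 lay above all controls and E5231 lay among them. The means were 163.5 ± 13.5 and 144.3 ± 12.2 CPM (SD, n = 4), and the log2 fold change was 0.18 (SE 0.081), with adjusted p-values of 1 (exact test of edgeR) and 0.742 (its quasi-likelihood test). An exact two-sided permutation test over mice gave p = 0.0857, where the smallest p that 4 against 4 mice allows is 0.0286. Control E5642 had the highest skeletal muscle markers and the lowest mean log2(CPM + 1) of oligodendrocyte markers. Without this mouse the log2 fold change of Srebf2 was 0.11, and without E5386 and E5642 it was 0.12. It was 0.20 with an oligodendrocyte marker score as a covariate and 0.22 without Ager-deleted E5231.

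Srebf1, which encodes SREBP1 and acts mainly on fatty acid genes, measured 205, 175, 151 and 162 CPM in Ager-deleted and 181, 168, 162 and 177 CPM in control mice, with a log2 fold change of 0.01. Its order of mice ran against that of the synthesis genes, with E1776 highest and E5248 lowest. Srebf1 and Scap share 109 and 985 exon bases with genes on the opposite strand. Insig1, itself a target of SREBP2, measured 46.1, 46.2, 64.6 and 64.6 CPM in Ager-deleted and 52.4, 48.0, 68.0 and 56.9 CPM in control mice. E1776 and E5231 lay below all controls, E5248 and E5568 lay above all but E6578, and the log2 fold change was -0.02. It was -0.18 without E5386 and E5642 and -0.17 with the muscle covariate. The median Pearson correlation with the 18 synthesis genes, on the same scale as above, was 0.77 for Srebf2, 0.76 for Insig1, 0.37 for Insig2, -0.21 for Scap and -0.58 for Srebf1, and without E5386 and E5642 it was 0.72 for Insig2 and -0.68 for Scap. The median Spearman correlation of Srebf1 was -0.43.

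Of the LXR and efflux genes, Abca1, the transporter that loads cholesterol onto lipid-poor apolipoproteins, had the most negative difference of all 35 genes and the widest spread among Ager-deleted mice. It measured 369, 308, 239 and 194 CPM in Ager-deleted and 298, 350.0, 291 and 334 CPM in control mice. E5248 and E5568 lay below all controls and E1776 above all of them. The means were 277.6 ± 77.1 and 318.2 ± 28.3 CPM (SD, n = 4), with a log2 fold change of -0.20 (SE 0.17), an interval of 0.671-fold to 1.14-fold and, in an exact two-sided permutation test, p = 0.371. Single mice moved this value: the log2 fold change of Abca1 was -0.36 without E1776 (unadjusted exact test p = 0.0251), -0.13 without E5248 and -0.06 without E5568, and without either of the last 2 mice that of Hsd17b7 was more negative. Hsd17b7 was also more negative than Abca1 without control E5642 (-0.19 against -0.15) and without E5386 and E5642 (-0.22 against -0.18). With the muscle covariate the values were -0.21 for Hsd17b7 and -0.18 for Abca1. Abcg1, which exports cholesterol to lipidated particles, measured 118, 83.4, 90.2 and 84.0 CPM in Ager-deleted and 92.0, 108, 89.9 and 96.3 CPM in control mice. Lcat, which esterifies cholesterol on secreted particles, measured 43.3, 31.2, 28.2 and 29.6 CPM in Ager-deleted and 38.9, 31.3, 30.0 and 32.5 CPM in control mice. E1776 was the highest of the 8 mice for Abca1, Abcg1 and Lcat, and both Abcg1 and Lcat overlapped between the groups, with log2 fold changes of -0.04 and -0.01. The median Pearson correlation with the synthesis genes was -0.67 for Abca1, -0.55 for Abcg1 and -0.44 for Lcat (-0.70 for Lcat without E5386 and E5642). The median Spearman correlation was -0.73 for Abca1, -0.33 for Abcg1 and -0.43 for Lcat. Negative values were not particular to these genes. The median Pearson correlation was -0.60 for Nr1h3, -0.59 for Cyp27a1, -0.58 for Npc2 and -0.55 for Lipa, whereas it was 0.78 for Stard4 and 0.63 for Cyp46a1.

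Nr1h2, which encodes LXR beta, was the only one of the 35 genes whose groups did not overlap. It measured 60.6, 63.9, 59.7 and 63.5 CPM in Ager-deleted and 54.8, 56.3, 57.6 and 59.4 CPM in control mice, and the lowest Ager-deleted mouse (E5248) lay just above the highest control (E6732). All Ager-deleted mice lay above all controls for 1.97% of tested genes and below them for 1.91%, so 1 and 0 of 35 members are near the background. The means were 61.9 ± 2.09 and 57.0 ± 1.95 CPM (SD, n = 4), and the log2 fold change was 0.12 (SE 0.055). The exact two-sided permutation test gave p = 0.0286, the smallest it can give, and by the exact test of edgeR the adjusted p was 1. When CPM was scaled by library size alone the groups overlapped, with permutation p = 0.0571, and without E5386 and E5642 the log2 fold change was 0.08. Nr1h3, which encodes LXR alpha and is enriched in macrophages, lay at 7.26 to 9.03 CPM in Ager-deleted and 7.25 to 9.76 CPM in control mice.

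**Figure D4:**
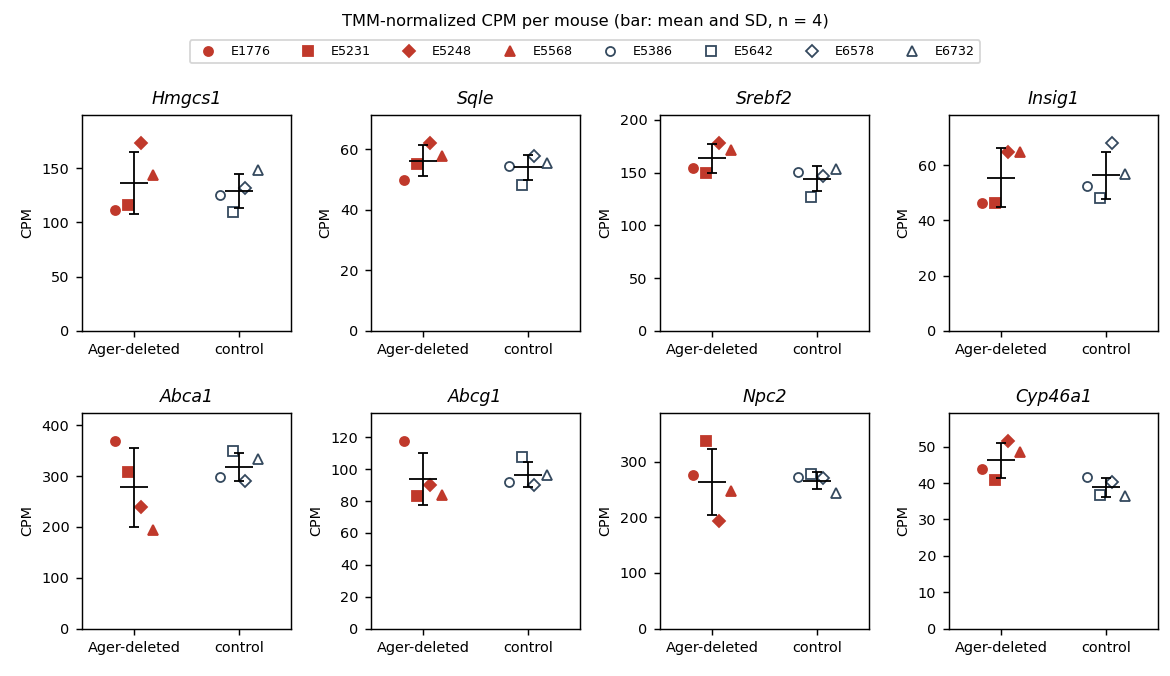
TMM-normalized CPM (vertical axis, from 0) of 8 genes in each Ager-deleted mouse (filled symbols) and each control (open symbols), with the mean and SD of 4 mice as a horizontal bar and whiskers. E5248 (filled diamond) is high for Hmgcs1, Sqle, Srebf2 and Cyp46a1 and low for Npc2, and E1776 (filled circle) is high for Abca1 and Abcg1.

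The transfer and storage genes did not separate the genotypes. Soat1, which esterifies cholesterol for storage in droplets, measured 83.5, 72.5, 78.2 and 71.1 CPM in Ager-deleted and 77.4, 80.9, 66.9 and 86.6 CPM in control mice, with a log2 fold change of -0.03. Npc1, the lysosomal membrane transporter, measured 198, 163, 171 and 155 CPM in Ager-deleted and 184, 155, 160.2 and 169.9 CPM in control mice, with a log2 fold change of 0.03. Both overlapped between the groups, and Npc1 shares 511 exon bases with Rmc1 on the opposite strand. Npc2, chosen for description after its values were seen, measured 275, 337, 193 and 248 CPM in Ager-deleted mice and 244 to 278 CPM in controls. Its SD was 59.9 CPM among Ager-deleted and 14.9 CPM among control mice, and its order within the Ager-deleted mice was that of their summed microglial markers, at 2751, 3147, 1727 and 2091 CPM. Stard4, which moves cholesterol to the endoplasmic reticulum and was also chosen after its values were seen, measured 21.1, 25.4, 40.2 and 32.6 CPM in Ager-deleted and 25.95, 24.3, 33.8 and 31.4 CPM in control mice. It followed the synthesis genes most closely of the 17 other genes, with a median correlation of 0.78. Lipa, the lysosomal acid lipase, lay at 55.2 to 69.5 CPM in Ager-deleted and 58.8 to 73.6 CPM in control mice.

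Cyp46a1, the neuronal cholesterol 24-hydroxylase, was the member with the lowest p. It measured 43.8, 40.9, 51.6 and 48.6 CPM in Ager-deleted and 41.7, 36.7, 40.3 and 36.5 CPM in control mice. Of the Ager-deleted mice, 3 lay above all controls, while E5231 lay below control E5386. The means were 46.2 ± 4.77 and 38.8 ± 2.61 CPM (SD, n = 4), a 1.19-fold difference (95% interval 1.05 to 1.35) and a log2 fold change of 0.25 (SE 0.084). Adjusted p-values were 0.915 (exact test of edgeR) and 0.713 (its quasi-likelihood test), the unadjusted p in the exact test was 0.0181, the 385th lowest of all genes, and the exact two-sided permutation test gave p = 0.0571. The unadjusted p was above 0.05 when any of Ager-deleted E5248 (0.0687), Ager-deleted E5568 (0.0573), control E5642 (0.0558) or control E6732 (0.0538) was left out. Summed neuronal markers had the same order as Cyp46a1 within the Ager-deleted mice. In the controls these sums were 3579, 3800, 4390 and 3934 CPM, and E5386, with the lowest, had the highest control Cyp46a1. The part of neuronal content in Cyp46a1 was not tested. Cyp27a1, the mitochondrial sterol 27-hydroxylase, measured 47.0, 47.6, 39.6 and 46.0 CPM in Ager-deleted and 50.8, 48.3, 43.7 and 47.7 CPM in control mice, with a log2 fold change of -0.08.

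Beyond the 35 genes, 50 genes in 6 lists of neighbouring lipid pathways were tested, and 0 of 50 passed the adjusted threshold, with 25 lower and 25 higher in Ager-deleted mice. Of 10 fatty acid synthesis genes 7 were lower, with a median log2 fold change of -0.04. At an unadjusted p under 0.05 in the exact test, 2 of 50 were lower and 1 higher, where 3.06% and 1.2% of all genes were. These counts are near the background, and the 3 genes are named here because their values were seen. Scd1, the stearoyl-CoA desaturase, measured 410.0, 317, 426 and 395 CPM in Ager-deleted and 647, 447, 520.4 and 450.2 CPM in control mice, so that all Ager-deleted mice lay below all controls. Its log2 fold change was -0.42 (SE 0.13), and its adjusted p by the exact test of edgeR was 0.516. All Ager-deleted mice lay below all controls for 1 of 50 genes here and for 1.91% of all tested genes. The highest Scd1 level was in control E5386, the mouse with adipocyte transcripts. Of 8 lipoprotein receptors and carriers 4 were lower and 4 higher, and the extremes were Apod, an apolipoprotein of glia and fibroblasts, at a log2 fold change of -0.58, and Pltp, the phospholipid transfer protein, at 0.26, where the exact test of edgeR gave adjusted p-values of 1 for both. Apod measured 1781 CPM in control E5386 and 2948 to 4511 CPM in the other controls, and summed fibroblast markers were likewise low in E5386, at 73.9 CPM against 418 to 526 in the other controls. In Ager-deleted mice Apod lay at 1803 to 2860 CPM and the fibroblast sums at 177 to 366 CPM. The part of fibroblast content in Apod was not tested. Among 7 genes of the isoprenoid branch 3 were lower, among 7 genes of SREBP processing and turnover 3 were lower, and among 14 other sterol transfer and efflux genes 4 were lower. All 4 other sterol hydroxylase and ester hydrolase genes were lower, with a median log2 fold change of -0.16, and 0 of 4 had an unadjusted p under 0.05 in the exact test.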

How the data were processed

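Whole lumbar cord RNA from 8 mice was sequenced as stranded poly(A) libraries. The authors trimmed reads with Trimmomatic 0.36, aligned them to mm10 with STAR 2.7.3a and counted them per GENCODE gene with featureCounts of Subread 1.6.3 (versions per the submitters' processing notes). The strand setting is not given in the sources used here. The deposited raw count table was used for every test. The deposited log2 TMM-normalized CPM table, made by the authors with edgeR, was recomputed from the counts to within 4.78e-06 and not otherwise used.

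Genes were filtered with filterByExpr (minimum count 10) in edgeR 4.0.16 (R 4.3.3) and normalized by TMM. They were compared by the exact test with Benjamini-Hochberg adjustment. The study's methods also name TMM and the exact test of edgeR, but not how dispersions were estimated. With dispersions from estimateDisp, 14 genes were called here, whereas the study reported 78. Common and tagwise dispersions gave the same number as the study, 78, with 0 cholesterol members among them. The study named cholesterol metabolism among the pathway gene sets enriched in its differential genes. That enrichment was not examined here. The quasi-likelihood test gave standard errors and intervals. Single genes were compared by exact two-sided permutation of log2(CPM + 1). DESeq2 1.42.0, limma 3.58.1 and other filters and scalings were alternatives. Scripts were tested on simulated data. Exon lengths and overlaps came from GENCODE M21 (GRCm38). Per-mouse values are given for 16 members named by role, for any with an unadjusted p under 0.05 for any whose groups did not overlap and for Npc2 and Stard4, chosen after their values were seen, and genes of other lists only where a result turns on them. Members, lists and this rule were chosen with earlier results of these data known.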

Additional observations from a re-analysis of the deposited data

Results flagged for a closer look

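In 70 groups of 4 mice (35 genes in each genotype), 1 mouse lay far from the other 3 of its group. Fdps, the farnesyl diphosphate synthase gene, measured 7.29 CPM in Ager-deleted E1776 and 8.89 to 9.20 CPM in the other Ager-deleted mice, a gap of 0.852 of the group's range, above Dixon's 95% critical value. Chance flags about 1 in 20 groups.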

How the results depend on the processing

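No cholesterol gene passed an adjusted p of 0.05 under any alternative tried, and the lowest adjusted p of a member was 0.453 (DESeq2, Cyp46a1). The 14 calls over all genes became 5 with a filter at 50 counts, 78 with common and tagwise dispersions, 25 with DESeq2, 1 each with the quasi-likelihood test, limma-voom, a skeletal muscle covariate and an oligodendrocyte covariate, 67 without E5386 and E5642, and 3 (without Ager-deleted E5231) to 98 (without control E6578) when 1 mouse was left out, with 53, 72 and 89 without E5248, E5386 and E6732 and 8 without either E5568 or E5642. Members at an unadjusted p under 0.05 numbered 2 with the quasi-likelihood test, DESeq2 and either covariate, 0 without E5386 and E5642, and 0 to 2 when 1 mouse was left out. The count over all genes at that level is given above for the exact and quasi-likelihood tests only. The median log2 fold change of the synthesis genes was -0.02 with the muscle covariate and -0.03 without E5386 and E5642 (12 of 18 lower each), and ran from -0.03 to 0.08 when 1 mouse was left out, where that of the other members ran from -0.05 to 0.01.

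Of 204 named log2 fold changes under alternatives, 21 had the other sign and 0 passed the threshold. With the muscle covariate these were Abcg1 (0.00637), Cyp51 (-0.0354), Dhcr7 (-0.0586), Hmgcs1 (-0.0253), Lcat (0.0586), Soat1 (0.00105) and Sqle (-0.00762). Without E5386 and E5642 they were Abcg1 (0.00507), Cyp51 (-0.0521), Dhcr7 (-0.0568), Hmgcs1 (-0.0481), Lcat (0.0741) and Sqle (-0.0157). With library size alone they were Idi1 (0.0235), Insig1 (0.000306) and Lcat (0.0168). With the oligodendrocyte covariate they were Idi1 (0.0268) and Lcat (0.0107), and Idi1 also changed sign with upper quartile scaling (0.0046), no filter beyond 1 count (0.0014) and the quasi-likelihood test (0.00043). When 1 mouse was left out, log2 fold changes that crossed 0 ran from -0.168 to 0.0126 for Abcg1, -0.0481 to 0.122 for Cyp51, -0.0384 to 0.0738 for Dhcr7, -0.0593 to 0.162 for Hmgcs1, -0.136 to 0.0793 for Idi1, -0.106 to 0.0791 for Insig1, -0.163 to 0.073 for Lcat, -0.0425 to 0.0811 for Npc1, -0.0972 to 0.0248 for Soat1 and -0.081 to 0.0721 for Srebf1. Apart from these, the difference of mean log2(CPM + 1) with library size alone had the other sign for Idi1 (0.0159) and Lcat (0.00674). The permutation p of Nr1h2 was 0.0571 with library size alone. The cause of these changes was not tested. No paired analysis was possible because the labels give no shared replicate numbers.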
